A study of Danio rerio with 6 samples.

Results

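The genes of the miR-23, miR-27 and miR-24 microRNAs (miRNAs) form clusters, and 8 array probes measured these miRNAs in the zebrafish heart: dre-miR-23a, dre-miR-23b, dre-miR-24, dre-miR-27a, dre-miR-27b, dre-miR-27c, dre-miR-27d and dre-miR-27e, written below without the species prefix. They were chosen by probe name, 8 of the 218 zebrafish miRNA probes on the array. RNA came from pooled hearts of adult Ekkwill (EK) fish, a zebrafish strain, with 3 uninjured samples (0 hours after amputation) and 3 regenerating samples taken 6 hours after part of the heart was resected under MS222 anesthesia. Neither group carried a transgene or drug treatment in the labels. In each group 2 samples were stained with Cy3 and 1 with Cy5 (uninjured replicate 2 and regenerating replicate 3). The comparison asks how the 3 seed families stood in the first hours of regeneration. Each sample is a pool of whole-heart RNA, so fewer cells of a type and less miRNA per cell cannot be told apart.

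A miRNA guides the silencing complex to messenger RNAs that pair with its seed, bases 2 to 8 from its 5′ end, so miRNAs with the same seed share many targets. In mammals the miR-23/27/24 clusters act in blood vessel growth and in the heart. There miR-23a promotes growth of heart muscle cells, miR-27 represses the vessel guidance signal semaphorin 6A and the nuclear receptor PPARγ, and miR-24 acts on endothelial survival after infarction. These roles are background from mouse and human work and were not measured here.

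The 3 families differ in their seeds, shown in capitals in the sequences that the deposited probe annotation gives as targets, 5′ to 3′. They are printed because the seed sets the family and the bases after it set how far neighbouring probes can be told apart.
miR-23a: aUCACAUUgccagggauuucca
miR-23b: aUCACAUUgccagggauuacca
miR-24: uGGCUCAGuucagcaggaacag
miR-27a: uUCACAGUggcuaaguuccgcu
miR-27b: uUCACAGUggcuaaguucugca
miR-27c: uUCACAGUgguuaaguucugc
miR-27d: uUCACAGUggcuaaguucuuca
miR-27e: uUCACAGUggcuaaguucagug

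Counted from position 1 at the 5′ end, the miR-23 and miR-27 seeds differ by the single substitution U7G. Within the miR-23 family the targets differ by U19A. Among the miR-27 members, miR-27b differs from miR-27d by G20U and from miR-27a by C19U and U22A (miR-27a given first). miR-27c, at 21 bases, differs from miR-27b by C11U and lacks the last base. Edit distances were 1 within miR-23 and 1 to 4 within miR-27, against at least 9 between any miR-23 and any miR-27 member. No probe outside the 8 lay within an edit distance of 3 of a member, and none shared a seed with one. Signal shared between probes of a family was not tested, so members of a family cannot be counted as separate observations.

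In the RefSeq annotation of the GRCz12tu assembly all 8 names match miRNA genes, and the genes form 5 clusters. In each cluster 1 miR-23 gene, 1 miR-27 gene and 1 miR-24 gene are neighbours among the miRNA genes, with the miR-27 gene in the middle. Only this order was read: distance, strand and shared transcripts at these loci were not examined. miR-27a sits between mir23a-3 and mir24b, miR-27b between mir23b-2 and mir24-3, and miR-27c between mir23a-2 and mir24-2. miR-27d lies between dre-mir-23b and mir24-1, and miR-27e between mir23a-1 and dre-mir-24-4. So by name each miR-27 probe matches a gene in 1 cluster, while miR-23a has 3 genes, miR-23b has 2 and the miR-24 genes are spread over all 5. The sequences of these genes were not compared with the probe targets, so the signal of a probe cannot be assigned to a cluster.

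All 8 members were bright. Each was above background in 6 of 6 samples, with background-subtracted mean intensities of 1837 at the lowest, on arrays where the empty spots had medians of 43.0 to 560. A probe has 12 spots on an array, and their coefficient of variation ran from 1.56% to 8.01% over members and arrays. The brightest member spot read 27687, below the brightest spot of any array at 58536. The arrays themselves differed. Averaged over the 138 tested probes, background-subtracted intensity ran from 6047 to 7345 on the uninjured arrays, and was 6758, 4520 and 4009 on those of regenerating replicates 1, 2 and 3. Detected probes numbered 110 to 217 of 218 per array, the highest in regenerating replicate 1. Heart muscle miRNAs (miR-1, miR-133a, miR-499), endothelial miR-126 and the red blood cell miRNA miR-451 were detected in all 6 samples. Brain miR-124, epithelial miR-203a and both arms of leukocyte miR-142a were each detected in 1 of 6, and miR-144 of red blood cells in 2. Liver miR-122 was detected in 4 of 6 and stood at 0.48 (SE 0.46, limma adjusted p = 0.610, groups overlapping), with background-subtracted intensities of at most 396. Leukocyte miR-223 was detected in all 6 and stood at 1.16 (SE 0.34, limma adjusted p = 0.131). Every regenerating sample of miR-223 lay above every uninjured one, an order seen in 9.42% of tested probes. The part of the source cells of miR-122 or miR-223 in the members' values was not tested.

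The miR-27 family read lower in the regenerating samples and the miR-23 family read the same or slightly higher, but no member passed the test. Of the 8 members, 5 had a log2 change below 0, all of them miR-27, while 2 were above 0 and miR-23a was at 0. Among all 138 tested probes 80 were below 0, 57 above and 1 at 0, so the count over the 8 members is near that of the array. The family medians were -0.35 for miR-27, 0.045 for miR-23 and 0.007 for miR-24, beside -0.052 over all 138 tested probes. In limma with Benjamini-Hochberg adjustment over those 138 probes at a threshold of 0.05, 0 of 8 members were called higher and 0 lower, where 3.62% of all tested probes were called (1.45% higher, 2 probes, and 2.17% lower, 3 probes). At an unadjusted p below 0.05 there were 2 members, miR-27a and miR-27b, where 20.3% of all tested probes reached that level. The count of all calls moved with the samples: it was 33 without regenerating replicate 1 and 1 without uninjured replicate 1 or regenerating replicate 2. Without uninjured replicate 2 or regenerating replicate 3 it was 0, but the dye term then takes up the remaining Cy5 sample, so those fits equal the fit of the Cy3 samples alone. No member was called in any of these 6 fits.

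**Figure D1:**
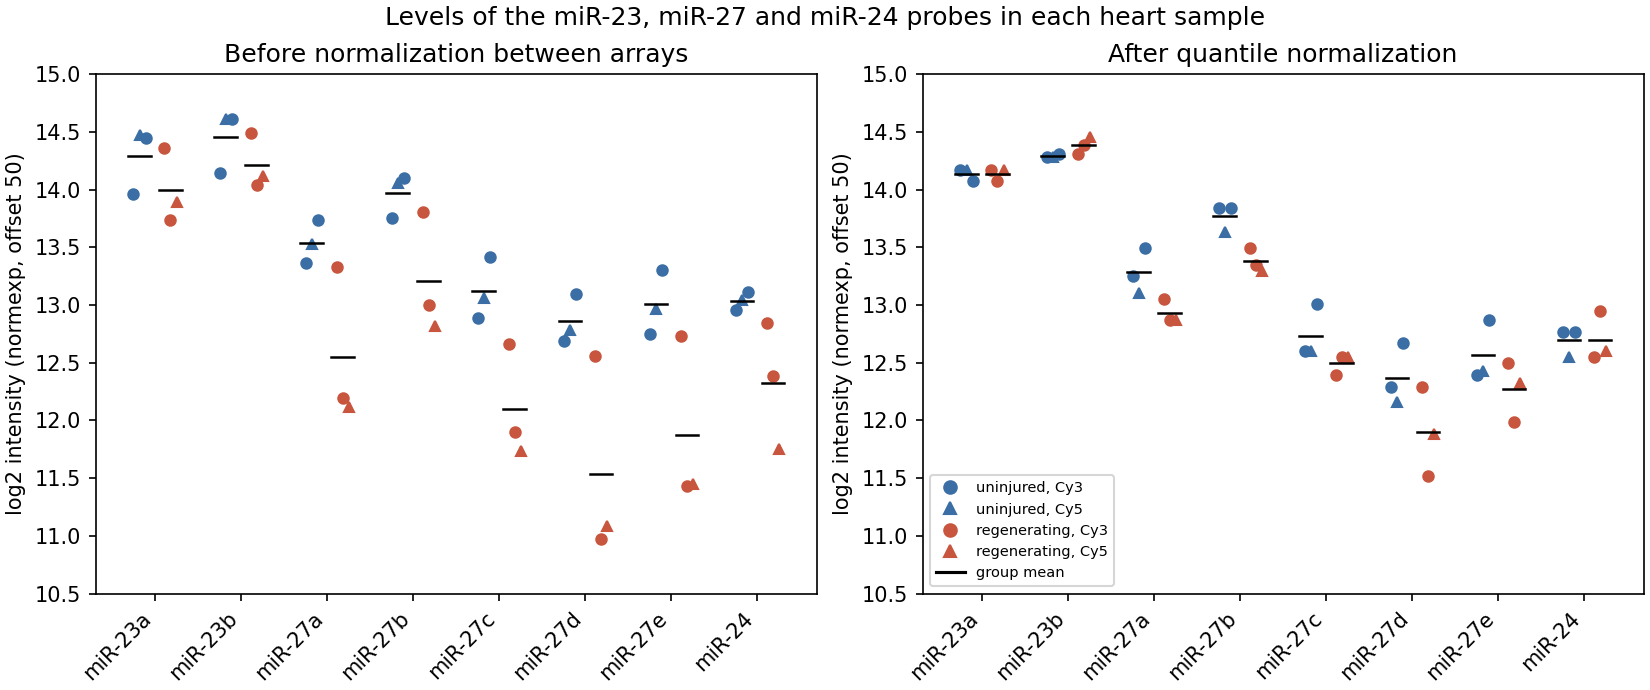
Log2 intensity (normexp, offset 50) of each member in each of the 6 samples, before (left) and after (right) quantile normalization; circles are Cy3, triangles Cy5, blue uninjured, red regenerating, and bars are group means. After normalization miR-23a has the same mean of 14.14 in both groups, while all 3 regenerating samples of miR-27a and miR-27b lie below all 3 uninjured ones.

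Levels here are log2 intensities after background correction and quantile normalization between arrays, which gives a probe the value belonging to its rank on the array. Samples are given in the order of replicates 1, 2 and 3. dre-miR-23a stood at 14.17, 14.17 and 14.08 in uninjured samples and at 14.17, 14.08 and 14.17 in regenerating ones. It ranked as the 16th or 17th brightest probe on every array, so its change of 0.00 (SE 0.12, 95% interval -0.29 to 0.29) states an equal rank, not an equal amount. dre-miR-23b stood at 14.28, 14.28 and 14.31 in uninjured samples and at 14.31, 14.39 and 14.45 in regenerating ones. Its groups touched at 14.31, and its change was 0.090 (SE 0.12, interval -0.20 to 0.38, limma adjusted p = 0.715).

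In the miR-27 family, dre-miR-27b had the smallest p-value of the members. It stood at 13.84, 13.64 and 13.84 in uninjured samples and at 13.49, 13.35 and 13.29 in regenerating ones, so every regenerating sample was below every uninjured one. Its change was -0.39 (SE 0.12, interval -0.69 to -0.095), a level 1.31-fold lower after amputation, with a limma adjusted p of 0.142. dre-miR-27a stood at 13.26, 13.11 and 13.49 against 13.05, 12.87 and 12.87, again without overlap. It had a change of -0.35 (SE 0.14, interval -0.70 to -0.0042, limma adjusted p = 0.244).

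dre-miR-27c stood at 12.60, 12.60 and 13.01 in uninjured samples and at 12.40, 12.55 and 12.55 in regenerating ones. The groups did not overlap but lay close, and the uninjured mean rested on replicate 3: the change of -0.24 (SE 0.16, limma adjusted p = 0.519) was -0.095 without it. dre-miR-27d stood at 12.29, 12.16 and 12.67 against 12.29, 11.52 and 11.89. Regenerating replicate 1 equalled uninjured replicate 1 and lay above uninjured replicate 2, so the groups overlapped. The change was -0.47 (SE 0.25, interval -1.08 to 0.13, limma adjusted p = 0.379), and -0.22 without regenerating replicate 2. dre-miR-27e stood at 12.40, 12.43 and 12.87 against 12.50, 11.99 and 12.33. These groups overlapped, with a change of -0.30 (SE 0.21, limma adjusted p = 0.519) that was -0.12 without regenerating replicate 2 and -0.13 without uninjured replicate 3.

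Over the family, all regenerating samples lay below all uninjured ones in 3 of 5 miR-27 members and in 0 of the remaining 3 members, where 14.5% of all tested probes had that order. The 5 probes share most of their letters, so these 3 are not independent. For miR-27c the gap between the groups was the step from rank 39 to rank 40 on the array. The change had the same sign at 12 of 12 spot positions for each miR-27 member, which measures agreement within the arrays and not between fish. It also had that sign within each dye. Among the Cy3 samples (2 against 2) the differences ran from -0.58 for miR-27d to -0.33 for miR-27c. Between the Cy5 samples (1 against 1) they ran from -0.34 for miR-27b to -0.051 for miR-27c, the latter again the step from rank 39 to rank 40.

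dre-miR-24, the only probe of its family, stood at 12.77, 12.55 and 12.77 in uninjured samples and at 12.55, 12.95 and 12.60 in regenerating ones. The groups overlapped throughout, and the change was 0.007 (SE 0.15, interval -0.37 to 0.38, limma adjusted p = 0.985). Its direction was not stable: it was 0.13 without regenerating replicate 1 and -0.10 without regenerating replicate 2. Of the other arms only miR-27c* was on the array, and it was above background in 1 of 6 samples, regenerating replicate 1, where 217 of 218 probes counted as detected. It was not tested.

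**Figure D2:**
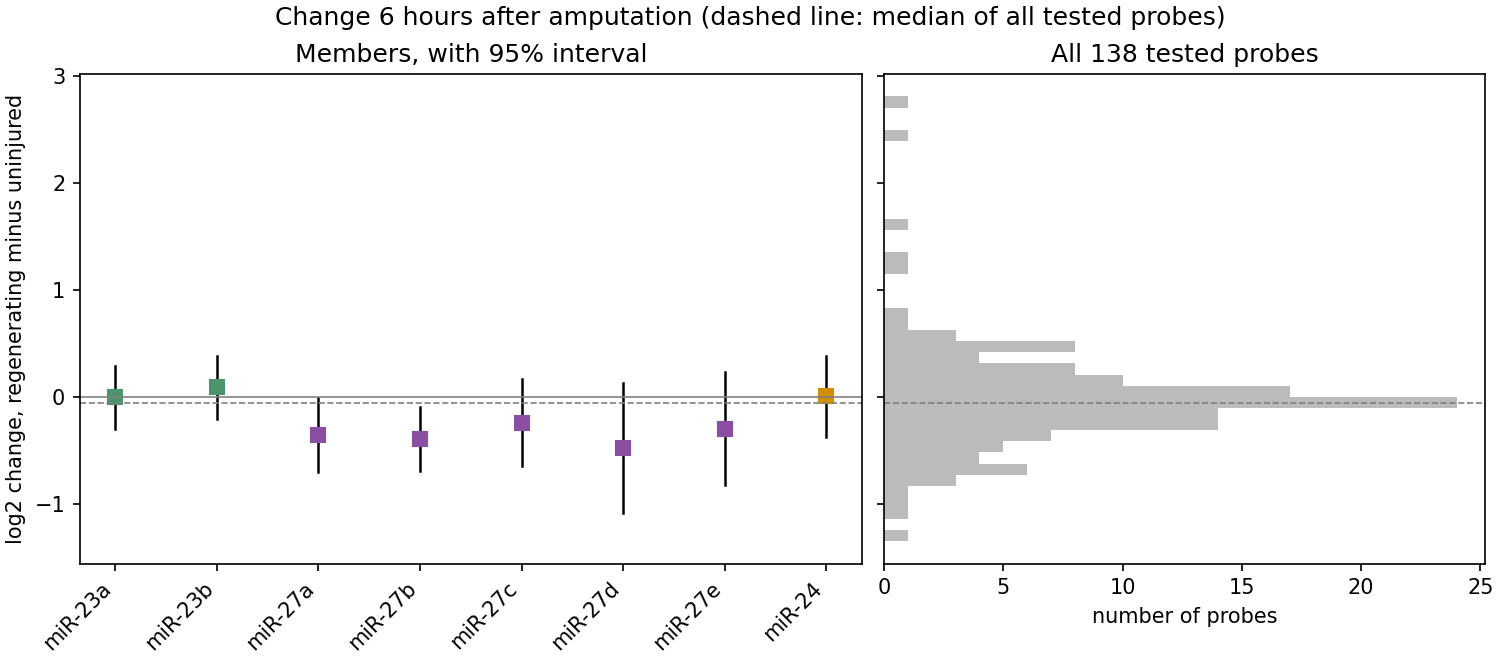
Left, log2 change (regenerating minus uninjured) of each member with its 95% interval from limma; right, the number of the 138 tested probes at each change, with the dashed line at their median of -0.052. The 5 miR-27 members lie between -0.47 and -0.24, and the intervals of miR-27c, miR-27d and miR-27e include 0.

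A difference between families within an array is not moved by a factor common to all probes of that array, though it can move with effects that depend on intensity. The mean log2 value of the 5 miR-27 probes minus that of the 2 miR-23 probes, before normalization, was -0.96, -1.26 and -1.0 in the uninjured samples. In the regenerating samples it was -1.41, -1.99 and -2.17. These values compare probes of different sequence, so only their change between groups can be read. All 3 regenerating samples lay below all 3 uninjured ones, at -1.85 ± 0.40 against -1.07 ± 0.16 (SD, n = 3 each), a difference of -0.78. Within the regenerating group the difference was lower on the dimmer arrays, those of replicates 2 and 3. Regenerating replicate 1, whose mean intensity of 6758 lay within the uninjured range, stood at -1.41, below the lowest uninjured value of -1.26. That array also had 217 probes detected, against 132 to 144 on the uninjured arrays. The part of array intensity in the difference was not tested. The difference between groups was -0.72 among Cy3 samples and -0.91 between Cy5 samples. After quantile normalization the difference was -0.40, and the groups again did not overlap, at -1.67 ± 0.15 against -1.27 ± 0.22. No test is given, because the members were chosen with results of these data known.

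Taken pair by pair before normalization, the groups did not overlap in 10 of 10 pairs of a miR-23 and a miR-27 probe, where 36.6% of all pairs of tested probes do not overlap. miR-27d moved farthest against miR-23b, by 1.08 log2 units, and miR-27b least against miR-23a, by 0.47. After quantile normalization 5 of these 10 pairs did not overlap, where 29.0% of all pairs do not. The 10 pairs come from 7 probes of 2 families and are not independent. Within the miR-27 family 2 of 10 pairs did not overlap before normalization, miR-27a with miR-27d (0.33) and miR-27b with miR-27c (0.26), and 0 of 10 after it. Before normalization brighter probes tended to have lower changes. Over the 105 probes detected on all arrays the change correlated with mean level at r = -0.22, and over the 138 tested at r = -0.57 (probes share arrays). The miR-23 mean lay above the miR-27 mean on every array, and its change before normalization was the higher one, the reverse of that tendency. The part of brightness in the difference between families was not tested. The change of -0.78 was -0.63 with cyclic loess and -0.40 with quantile normalization, both of which correct by intensity.

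The miR-24 probe lay between the other families on this scale. Its log2 value minus the miR-23 mean changed by -0.44 before normalization, from -1.34 ± 0.21 to -1.78 ± 0.42 (SD, n = 3 each), with uninjured replicate 2 and regenerating replicate 2 both at -1.50. After quantile normalization that change was -0.038 and the groups overlapped; it was 0.079 without regenerating replicate 1 and -0.15 without regenerating replicate 2. The miR-27 mean minus miR-24 changed by -0.34 before and -0.36 after normalization, and the groups overlapped on both scales, since regenerating replicate 1 stood within the uninjured range. The value after normalization was -0.14 without regenerating replicate 2 and -0.54 without regenerating replicate 1.

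**Figure D3:**
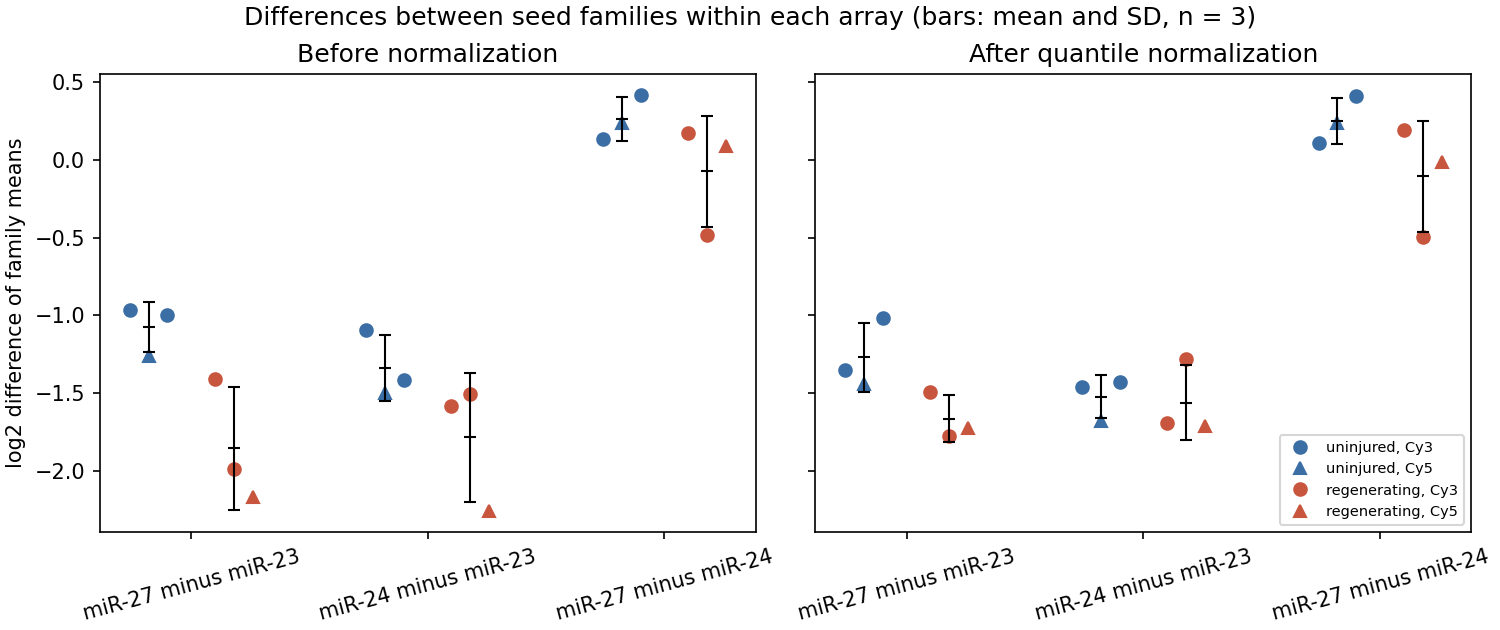
Differences of family means on the log2 scale within each array, before (left) and after (right) quantile normalization; circles are Cy3 and triangles Cy5, and bars give the mean and SD of 3 samples. The miR-27 minus miR-23 difference is lower in all 3 regenerating samples on both scales, at -1.85 against -1.07 on the left.

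How far the families stood from 0 depended on the scaling, while their order did not. With the 75th percentile of the probes detected on all arrays set equal, the family medians were -0.60 for miR-27, -0.29 for miR-24 and 0.16 for miR-23, and the median of all tested probes was 0.13. With the median of all 218 probes set equal, which lies among probes not detected on every array, they were -1.52, -1.21 and -0.76 beside -0.79 for all probes. There 6 of 8 members, all but the miR-23 pair, were called lower in limma, with 3 probes higher and 26 lower over the array. Scaling to the 16 calibration probes gave -1.66, -1.35 and -0.90 beside -0.93, with miR-27d and miR-27e called lower, and 2 probes higher and 14 lower over the array. The amounts of calibration sequence on each array are unknown here. With the median of the probes detected on all arrays set equal, or the 75th percentile of all probes, no member was called. The array then had 7 or 9 probes higher and 0 lower, as it had 5 higher and 0 lower with the 75th percentile of detected probes. Under every setting run, all 5 miR-27 members lay below 0 and below the median of all tested probes, though miR-27b was at -0.0076 with the 75th percentile of all probes. Shifts of whole arrays leave the order of members fixed, so these scalings do not test it separately. Settings that changed only the dye term, block, trend or detection filter left the members' changes at their main values. Leaving out either Cy5 sample repeats the Cy3 fit. These settings are therefore no separate support for the direction.

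The authors' deposited table, whose processing steps are unknown here, showed the same order. In it miR-23a read 13047, 15034 and 15733 in uninjured samples and 15265, 14182 and 17172 in regenerating ones. miR-27b read 10716, 10910 and 12117 against 10007, 8928 and 8757, and miR-27a read 7614, 7136 and 8988 against 6846, 5348 and 5627 in the authors' deposited table. For all 5 miR-27 members the groups did not overlap there, and for miR-23a they did. The share of all probes with such an order was not computed for that table, so this count has no background beside it. All 5 include miR-27d and miR-27e, whose groups overlapped after quantile normalization. Fitted in limma, the table's values gave changes of 0.089 for miR-23a, -0.28 for miR-27b, -0.41 for miR-27a and -0.65 for miR-27d, and 0 of 8 members were called (smallest limma adjusted p = 0.183, for miR-27d).

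**Figure D4:**
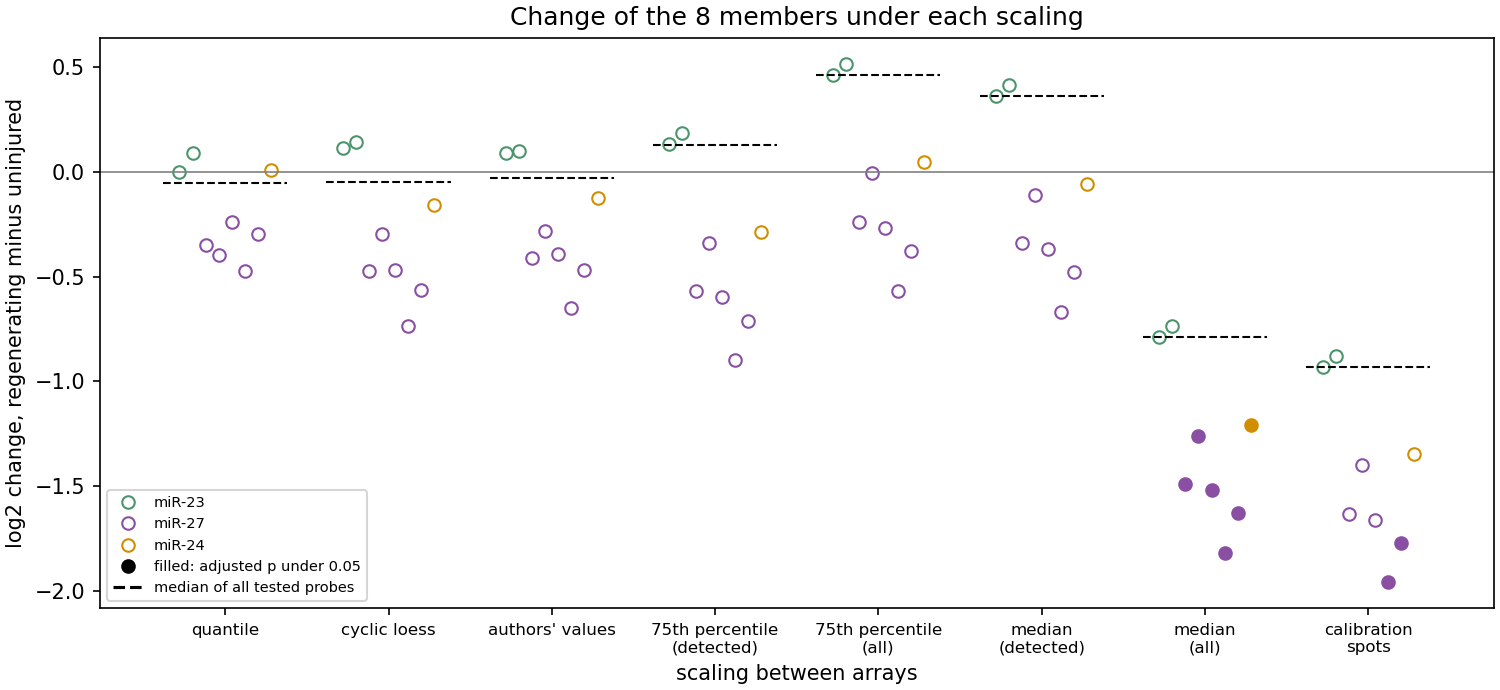
Log2 change of each member (circles, coloured by family) under 8 ways of scaling between arrays; dashed lines mark the median of the 138 tested probes and filled circles have a limma adjusted p under 0.05. The miR-27 circles lie below the dashed line under each scaling, and members are called only with the median of all probes (6) and with calibration spots (2).

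The GC content of the target went with the change over the 138 tested probes (r = 0.48, Spearman rho = 0.48, a description across probes). Members held 40.9% GC (miR-27d) to 54.5% (miR-24), and miR-23a, miR-23b, miR-27b and miR-27e were equal at 45.5%. Among these equal members, miR-23a stood at 0.00, miR-23b at 0.090, miR-27e at -0.30 and miR-27b at -0.39. After a correction for GC the changes were -0.51 for miR-27a, -0.40 for miR-27b, -0.16 for miR-27c, -0.33 for miR-27d and -0.31 for miR-27e. With it miR-24 stood at -0.31, near the miR-27 median of -0.33, and miR-23b at 0.082, and none was called in limma. The part of GC content in the uncorrected values was not tested beyond this correction.

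Members of the miR-27 family followed each other over the 6 samples, with r from 0.57 (miR-27c with miR-27d) to 0.96 (miR-27d with miR-27e). The part of near-identical sequence and shared arrays in these values was not tested. The miR-23 pair had r = -0.12. After normalization miR-23a took only the values 14.17 and 14.08, so this r rests on small steps of rank. It cannot be set beside those of the miR-27 members. Outside the members, the probes whose values over the 6 samples were most like the miR-27 mean were miR-216a (r = 0.88), miR-338 (r = 0.87) and miR-10b (r = 0.84). Of these miR-216a stood at -0.20 and miR-338 at -0.32, both with all regenerating samples below all uninjured ones, an order seen in 14.5% of tested probes. For miR-10b the change was -0.047 and the groups overlapped. None of them was called. They were picked for following a mean that is itself lower in the regenerating samples, so their order is no separate support. These probes lay near background: miR-216a was detected in 4 of 6 samples, miR-338 in 5 and miR-10b in 3. Closest to the miR-23 mean were let-7a (r = 0.88), miR-126 (r = 0.84) and let-7c (r = 0.83). By rank this likeness was weaker, with Spearman rho of 0.43, 0.60 and 0.43. Closest to miR-24 were miR-17a (r = 0.94), miR-155 (r = 0.90) and miR-22a (r = 0.83), of which miR-155 was detected in 3 of 6 samples. Each r rests on 6 samples that include both groups.

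A list of miRNAs tied to blood vessels gave the setting for these clusters. Of its 11 probes 10 were tested, and 0 were called in either direction, with 6 above 0 and 4 below (median 0.099, beside -0.052 for all tested probes). miR-222 stood at 0.42 (SE 0.13, limma adjusted p = 0.131) and its neighbour miR-221 at 0.28 (SE 0.13, limma adjusted p = 0.325), both with all regenerating samples above all uninjured ones, an order seen in 9.42% of tested probes. Endothelial miR-126 stood at 0.10 (SE 0.13), and miR-92a, a repressor of vessel growth in mouse, at -0.18 (SE 0.13). The change farthest from 0 in the list was that of miR-218a, at -0.55 (SE 0.42, limma adjusted p = 0.538). The other arm of the miR-126 hairpin, miR-126*, stood at -0.27 (SE 0.14, limma adjusted p = 0.384), with overlapping groups. It was detected in 4 of 6 samples, with background-subtracted intensities of at most 73. Its sign, opposite to that of miR-126, therefore rests on values near background.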

How the data were processed

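The members and lists were chosen with earlier results of these data known. Each spot's mean intensity, on a linear scale, is what the deposited spot files hold per the file headers, and empty spots in them stay above 0. Per the labels' protocols, size-selected small RNA was poly(A)-tailed, tagged and stained. The scanner is not named in the sources used here. The deposited value table holds the authors' processed intensities, with column medians of 41.0 to 63.6; its log2 values correlated with those computed here at r of 0.967 to 0.997, and its scaling stays unknown.

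Local background was the median of the 16 nearest of 1060 empty spots. Background correction was by normexp (offset 50; limma 3.58.1, R 4.3.3). Values were averaged as log2 over 12 spots and quantile normalized over 218 probes. Probes above 3 SDs of the empty spots in at least 3 samples (138) were fitted by limma with group and dye. The steps were tested on simulated spots. Changed probes in them moved by at least 1 log2 unit, farther than any member in the main fit, so smaller changes were not tested. Every simulated probe had the same spread between samples and no dye effect. Real spreads differed by probe (SD in regenerating samples 0.10 for miR-27b and 0.39 for miR-27d), so recovery under such spreads was not tested. In the simulated spots quantile normalization recovered nearly all changed probes. It also called unchanged ones, bright ones included, more often than the threshold of 0.05 implies. The calls over the array may therefore hold more false ones than that threshold states. Quantile normalization once turned the direction of a very bright probe that others overtook. A 75th percentile shift turned none, and in some runs called many dim unchanged probes but at most 1 as bright as the members. The series design calls the replicates biological. Same-numbered samples did not all deviate together (correlations 0.14, -0.45 and 0.37). Replicates 2 and 3 differ in dye between the groups, so this check cannot show that pairing is absent. All members were named; others were the listed vessel miRNAs and the 3 probes most like each family. Alternatives covered background, offset, normalization, filter, spots, dye, block, trend, GC and left-out samples. The number of arrays limits the precision.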

Additional observations from a re-analysis of the deposited data

How the results depend on the processing

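Of 138 probes 5 were called. This became 9 with the 75th percentile of all probes, 29 with the median of all probes, 16 with calibration spots, 0 with Cy3 samples only, 3 with an eBayes trend, 3 with GC correction and 0 to 33 with 1 sample left out, where leaving out either Cy5 sample gives the Cy3 fit. With the replicate number as a block, a pairing that the check above could not settle, 1 probe and 0 members were called. Members called became 6 with the median of all probes and 2 with calibration spots, and stayed at 0 in the other settings, including all with 1 sample left out. The miR-24 change of 0.007 turned to -0.16 with cyclic loess, -0.29 with the 75th percentile and -0.056 with the median of detected probes, -1.21 with the median of all probes, -1.35 with calibration spots, -0.13 with the authors' values, -0.015 with Cy3 samples only and -0.31 with GC correction, and ran from -0.10 to 0.13 with 1 sample left out. miR-23b turned to -0.74 with the median of all probes and -0.88 with calibration spots. The miR-23 median of 0.045 moved to 0.13 with cyclic loess, 0.16 and 0.49 with the 75th percentile of detected and all probes, 0.39 and -0.76 with the median of detected and all probes, -0.90 with calibration spots and 0.094 with the authors' values. The miR-27 median of -0.35 moved to -0.60, -1.52 and -1.66 with the 75th percentile of detected probes, the median of all probes and calibration spots. The miR-27 minus miR-23 change of -0.40 was -0.63 with cyclic loess and -0.78 with every shift of whole arrays, and -0.47 to -0.28 with 1 sample left out. The miR-24 minus miR-23 change of -0.038 was -0.29 with cyclic loess, -0.44 with those shifts and -0.35 with GC correction, and -0.15 to 0.079 with 1 sample left out. miR-27 minus miR-24 was -0.032 with GC correction and -0.54 to -0.14 with 1 sample left out. The differences between families and the median of detected probes were chosen after seeing the data. The cause of these shifts was not tested.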
